A study of Rattus norvegicus with 4 samples.

Results

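The transcript profile of normal soleus, a calf muscle that works slowly and almost without rest in standing, was read from 1 one-colour Agilent array of male rat muscle. The genes described are those whose probe was printed at least 2 times and gave a signal well above background: 8978 of 15831 genes and transcripts read in this way (56.7%), out of 26633 on the array. Of the 8978, 7549 had a gene symbol and 1429 did not, and those without one enter totals and ranks alone. Normal soleus came from rats aged 16 weeks, and RNA of 6 muscles was mixed in equal parts for the array. The series holds 3 more arrays, each of 6 mixed muscles. They are regenerated soleus (16 weeks of age, 8 weeks after injection of CTX, an abbreviation that stands unexplained), overloaded soleus (labelled hypertrophied, 18 weeks of age) and regenerated overloaded soleus (18 weeks of age). The other arrays are used here only to show whether an order of genes seen in normal soleus was found there too. With 1 array per group, no value has a replicate check and no test was run. The errors below are technical, the SD over spots of the same probe.

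A skeletal muscle fibre is built of sarcomeres, in which myosin thick filaments pull on actin thin filaments, and troponin and tropomyosin on the thin filament make the pull depend on calcium. Most of these proteins exist as slow and fast isoforms from separate genes, and slow fibres, which dominate the soleus, combine slow isoforms with many mitochondria, much myoglobin and a high use of fatty acids. Many metabolic enzymes also have a muscle form and a form found in other tissues. Besides fibres, a piece of muscle holds vessels, nerve endings, connective tissue and blood, so that the RNA is a mixture. In such bulk RNA, fewer cells of a type and less RNA per cell cannot be told apart.

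Signals are given on a log2 scale relative to the array's 75th percentile, so that 0 marks a signal of 662 intensity units. A signal depends on the amount of transcript and on how well its probe binds, and the second factor differs between probes. To show how much, signals were compared between probes of 1 gene on the same array. Over 602 probe pairs of 583 genes the difference had a median of 1.99, was within 4.86 for 90% of the pairs and reached 9.07. These are pairs with both probes well above background. With pairs in which 1 or both probes were, 955 pairs of 923 genes, the median was 2.76 and 90% lay within 5.46, called the wider limit here and chosen after seeing the data. A difference between 2 genes is therefore said to be past the probe spread only where it is over 4.86, and ranks of genes closer than that are ranks of signal, not of transcript number. The spots of 1 probe agreed far more closely, with a pooled SD of 0.11.

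To show what lies just upstream of genes at the top of the ranking and of a fast isoform far below them, the 120 bases before the annotated start of 5 genes are printed from RefSeq (assembly GRCr8), 5′ to 3′ on the gene's strand. They are Tnnt1 (slow troponin T, chr1:78348915-78349034, plus strand), Mb (myoglobin, chr7:110647743-110647862, minus strand), Acta1 (skeletal actin, chr19:68784195-68784314, minus strand), Cox6a2 (a muscle form of a cytochrome c oxidase subunit, chr1:192219717-192219836, minus strand) and Myh2 (fast myosin 2A, chr10:52355619-52355738, plus strand). Capitals mark a TATA box (TATAAA) in Tnnt1, Mb, Acta1 and Myh2. In Acta1 they also mark an MCAT element (CATTCC), the letters bound by TEAD factors. In Cox6a2 they mark a MEF2-like element (CTA and TAG with any 4 bases between them). The 5 printed are those, of the promoters looked at, that held a marked motif. The same windows of Myh7, Tnni1, Ckm, Myl3 and the fast isoform Tnni2 held none and are not printed. The printed 5 therefore do not show how common a motif is.
Tnnt1: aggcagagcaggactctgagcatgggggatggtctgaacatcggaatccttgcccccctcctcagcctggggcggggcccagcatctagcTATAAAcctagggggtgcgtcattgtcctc
Mb: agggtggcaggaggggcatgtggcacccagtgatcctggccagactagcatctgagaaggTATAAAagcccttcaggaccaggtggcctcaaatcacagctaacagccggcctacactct
Acta1: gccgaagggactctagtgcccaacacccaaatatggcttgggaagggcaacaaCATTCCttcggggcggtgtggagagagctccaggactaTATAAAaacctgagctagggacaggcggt
Cox6a2: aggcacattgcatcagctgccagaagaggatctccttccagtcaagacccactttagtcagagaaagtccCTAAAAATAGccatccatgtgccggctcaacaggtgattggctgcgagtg
Myh2: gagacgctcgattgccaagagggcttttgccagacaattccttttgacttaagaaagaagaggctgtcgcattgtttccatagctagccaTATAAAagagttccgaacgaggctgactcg

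The same motifs were counted over all 24206 promoters of the table. TATAAA, searched on the gene's strand in the last 120 bases, was in 4.87% of all promoters, in 3.59% of those of genes well above background and in 7 of 58 (12.1%) of those of the brightest 1%. In genes of the muscle lists among the brightest 5% it was in 6 of 30 promoters (20%). The MEF2-like element, searched on both strands over 250 bases, was in 3.37% of all promoters and in 4 of the same 30 (13.3%). CATTCC, searched likewise, was in 11.6% of all promoters and in 4 of those 30 (13.3%). CANNTG, the E-box that myogenic factors bind, was in 65.0% of all promoters, in 56.2% of those of genes well above background, in 49 of 58 (84.5%) of the brightest 1%, in 160 of 289 (55.4%) of the brightest 5% and in 23 of 52 (44.2%) of those of cytosolic ribosomal proteins. A match is a description of letters in these windows. The median GC content of the windows was 52.4% over all promoters, 60% for genes well above background and 57.8% for the brightest 1%, and its part in these shares was not tested.

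The ranked signal of normal soleus fell steeply. The brightest gene gave 355789 intensity units and the median gene 454 units, on the log2 scale 9.07 and -0.54, and the dimmest gene counted as well above background gave 30.1 units (-4.46). The brightest gene not called well above background gave 90.8 units, so that the call depends on the spots as well as on the level. A single gene held 0.891% of the summed signal, the 10 brightest held 7.06%, the 40 brightest 20.9% and the 90 brightest (1% of the genes) 34.6%. It took 184 genes to hold 50% of the summed signal, and the brightest 5% (449 genes, the limit being a log2 signal of 4.64) held 69.3%. The lower and upper quartiles of the log2 signal were -2.27 and 1.42, so that the central part of the ranking spans less than the probe spread.

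**Figure D1:**
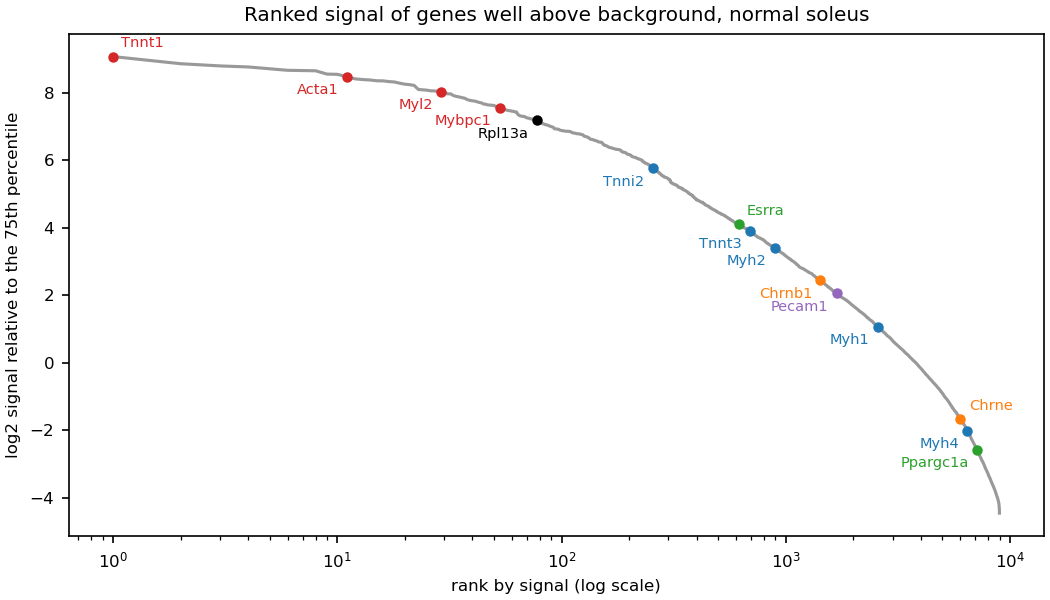
Rank of the 8978 genes well above background in normal soleus (log axis) against the log2 signal relative to the array's 75th percentile, with 15 genes named (red slow or skeletal sarcomere genes, blue fast sarcomere genes, green regulators, orange acetylcholine receptor subunits, purple an endothelial gene, black a ribosomal protein). Slow sarcomere genes sit at the upper left, from Tnnt1 at 9.07 to Mybpc1 at 7.54, the fast genes spread from Tnni2 at 5.76 to Myh4 at -2.01, and Ppargc1a lies at -2.59.

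The top of the ranking was held by sarcomere genes, genes of the respiratory chain and genes of the cytosolic ribosome. Of the 40 brightest genes with a symbol, 9 were on the sarcomere lists, 13 encode subunits of the respiratory chain or ATP synthase, 7 cytosolic ribosomal proteins and 3 were on the list of energy buffering and oxygen storage. Among the brightest 90 genes, 12 were sarcomere genes, 19 respiratory chain genes and 18 ribosomal protein genes, while 18 had no symbol. These groups held 8.02%, 11.4% and 11.5% of the summed signal. Genes on none of the lists grouped here held 40.4%, and those with no symbol 18.5%.

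The brightest gene was Tnnt1, slow skeletal troponin T, which ties the troponin complex to tropomyosin. Its 2 spots gave 413711 and 305977 intensity units, a log2 signal of 9.07 ± 0.31 (SD between spots), and it was also the brightest gene on the other 3 arrays. Mb, myoglobin, the oxygen-binding protein of muscle, came second with spots of 313045 and 301581 units (8.86 ± 0.04). Cryab, the small heat shock protein alpha-B crystallin that guards Z-discs and desmin, had spots of 334305 and 247311 units (8.76 ± 0.31). The spots of Tnnt1 and Cryab overlapped those of Mb, so these 3 genes have no order among themselves.

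Other thin filament genes at the top were Tnnc1, the calcium sensor of slow and cardiac troponin (8.54 ± 0.05), Acta1, skeletal alpha-actin (8.47 ± 0.03), and Tnni1, slow troponin I, the inhibitory subunit (8.28 ± 0.10). Of the thick filament, Myh7, the heavy chain of slow myosin, had spots of 274783 and 224232 units (8.55 ± 0.21). Its light chains followed closely: Myl3, the slow essential light chain, at 8.39 ± 0.05 and Myl2, the slow regulatory light chain, at 8.02 ± 0.04. Mybpc1, slow myosin binding protein C, which bridges thick and thin filaments, was at 7.54 ± 0.04. Tnnt1 and these 7 genes lay closer together than the probe spread, so that their order is not an order of abundance.

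All 16 thick filament genes, 15 thin filament genes and 20 genes of the Z-disc and cytoskeleton that were read lay well above background, against 56.7% of all genes read. By count, 24 of these 51 were in the brightest 5% of genes. Their median log2 signal was 4.40, against -0.54 for all genes well above background, and here and below medians are over the genes of a list that were well above background. On the Z-disc list, Fhl1, a LIM-domain protein, was at 8.09 ± 0.04 over 10 spots. Nrap, which helps to lay down new myofibrils, was at 7.12, Myot, the Z-disc protein myotilin, at 6.86 and Ankrd2, a stretch-responsive ankyrin repeat protein, at 6.78. At the low end were Myh4, the heavy chain of the fastest myosin (-2.01), and Pdlim5, a PDZ and LIM protein (-1.51).

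Genes of oxidative metabolism were bright as a body rather than through a few members. Of 65 genes of the respiratory chain and ATP synthase that were read, 64 were well above background and 55 were in the brightest 5%. ATP synthase had the highest median of the gene lists, 7.27 over 16 of 16 subunits, led by Atp5f1a, a catalytic-head subunit, at 8.38. Complex IV, cytochrome c oxidase, had a median of 6.67 over 11 of 12 subunits, with Cox6a2 at 8.66, Cox6c at 8.09 and Cox8b at 8.05. Its one subunit not well above background was Cox8c, and Cox4i2, an alternative form of subunit 4, was at -0.06 where Cox4i1 was at 7.70. Complex I had a median of 5.79 over 30 of 30 subunits, led by Ndufa5 at 7.85 and Ndufb8 at 7.77, and complex III 5.73 over 7 of 7, led by Cyc1, cytochrome c1, at 7.03. A single complex III subunit stood far from the others, Uqcrb at -1.82, read from 10 spots of 1 probe.

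All 24 TCA cycle genes read were well above background, with a median of 4.03 and Idh2, mitochondrial isocitrate dehydrogenase, at 7.89. The next in signal were Suclg1, a succinyl-CoA ligase subunit (6.38), Idh3g, a subunit of the NAD-dependent isocitrate dehydrogenase (5.95), and Sdhb, the iron-sulphur subunit of succinate dehydrogenase (5.90). The 28 genes of fatty acid uptake and oxidation were all well above background, with a median of 3.91. They were led by Fabp3, the fatty acid carrier of heart and slow muscle (7.08), Hadh and Acadl, enzymes of beta-oxidation (6.38 and 6.30), and Etfb, which takes electrons from it (6.23). The 28 genes of glycolysis and glycogen were also all well above background, with a median of 3.37. Among them Eno3, the muscle enolase, was at 7.59, Ldhb, the heart-type lactate dehydrogenase, at 7.05, and Gapdh and Pgk1, enzymes of the middle of glycolysis, at 6.70 and 6.37.

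Energy buffering and oxygen storage had 10 of 11 genes well above background and a median of 6.32. Ckmt2, the creatine kinase of muscle mitochondria, was at 8.22, and Ckm, the creatine kinase of the myofibril, at 7.97. Car3, the carbonic anhydrase of slow fibres, was at 6.88 and Ampd1, the muscle AMP deaminase, at 6.58. Gatm, the first enzyme of creatine synthesis, was not well above background, and Gamt, the second, was at 0.97, while Slc6a8, the transporter that takes creatine up from blood, was at 3.84.

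Calcium handling had 15 of 15 genes well above background and a median of 4.23. The list was led by Atp2a2 and Atp2a1, the slow and fast calcium pumps of the sarcoplasmic reticulum, at 7.91 and 6.71, followed by Casq1, the skeletal calsequestrin that stores calcium (6.62), and Cacna1s, the voltage sensor of the transverse tubule (5.73). Of the small proteins that restrain the pump, Sln (sarcolipin) was at 5.54 ± 0.04 and Pln (phospholamban) at 1.69 ± 0.09, a difference within the probe spread. Pvalb, parvalbumin, the calcium buffer of fast fibres, was at 1.78 ± 0.05. Excitation and membrane genes were dimmer, with a median of 1.88 over 16 of 16. They ranged from Atp1b1, a sodium pump subunit (5.41), Dag1, dystroglycan (4.83), Sgca, alpha-sarcoglycan (4.81), and Cav3, caveolin 3 (4.75), down to Clcn1, the chloride channel of the muscle membrane (-3.06).

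Protein synthesis was the third large block. All 66 cytosolic ribosomal protein genes read were well above background, 58 of them in the brightest 5% of genes, with a median of 6.65. They ran from Rplp0, a stalk protein (8.25), Rps29 (8.02), Rpl35 (7.87) and Rpl37a (7.79) down to Rpl15 at -1.60, read from 10 spots of 1 probe. Mitochondrial ribosomal proteins, which translate the mitochondrial genome, had 65 of 67 genes well above background, a median of 2.74 and 4 genes in the brightest 5%. Their leading genes were Mrpl14 (5.33), Mrpl54 (5.23), Mrpl12 (5.07) and mrpl11 (4.75). Proteasome subunits had 36 of 36 and a median of 3.06, led by Psmc5, an ATPase of the cap (6.00), Psma6, a core subunit (5.47), Psmd1 (5.16) and Psmc2 (5.07). The many processed copies of ribosomal protein genes in the rat genome make the values of this family uncertain.

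Of the 40 brightest genes with a symbol, 4 were on no list. They were Ceacam9, of the carcinoembryonic antigen family of adhesion molecules (8.08 ± 0.16), Tpt1, a translation-linked protein found in all tissues (8.06), Apobec2, the muscle member of a deaminase family (7.96), and Ndrg2, a stress-linked protein abundant in muscle (7.71). Ceacam9 ranked 25 on the normal array and 23, 24 and 23 on the other 3 arrays. It was read from 1 probe, whose response is the same on every array. The like ranks therefore do not show how abundant its transcript is.

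**Figure D2:**
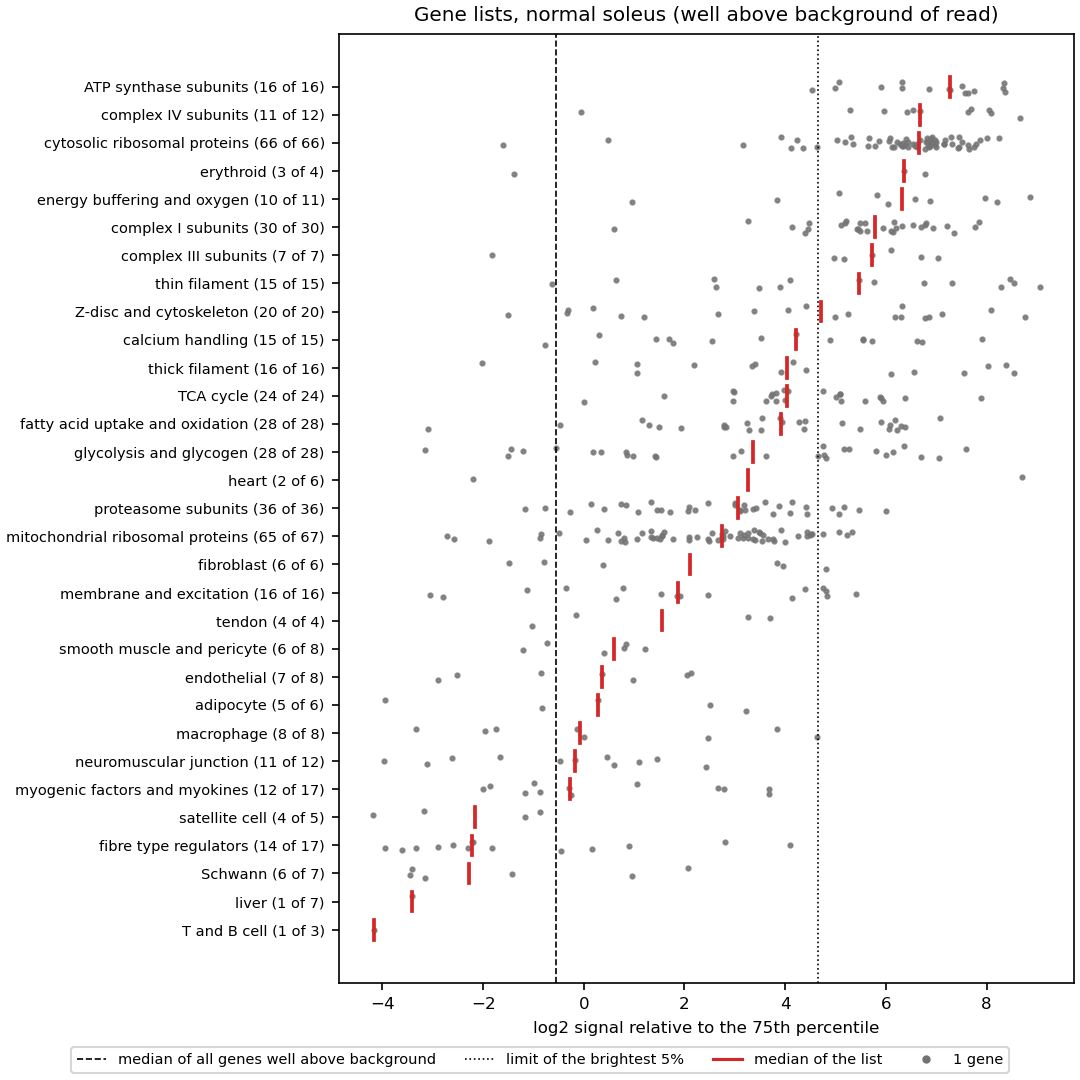
Log2 signal of the genes of each list in normal soleus, relative to the array's 75th percentile (1 grey point a gene, with random vertical spread). Red bars mark list medians, the dashed line the median of all genes well above background (-0.54) and the dotted line the limit of the brightest 5% (4.64). Respiratory chain and ribosomal lists lie at the right, and regulators of fibre type (median -2.21) at the left.

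Of 17 pairs of slow and fast isoforms, 14 had both members well above background and 11 of these had the brighter signal on the slow side. The median of the slow member minus the fast member was 1.87. In 4 pairs the slow member was brighter by more than the probe spread (2 pairs with the wider limit of 5.46), and in no pair was the fast member brighter by that much. In 10 pairs the difference lay within the spread, so that the order in them is an order of signal alone. The pairs not read were Mybpc1 and Mybpc2, Myoz2 and Myoz1, and Myom3 and Myom2, in each of which 1 member had no matched probe. Of the members that had one, Myoz1, a Z-disc calsarcin of fast fibres, was at 4.06 and Myom2, an M-band protein of fast fibres, at 2.19.

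Myosin heavy chains gave the widest separation. Myh7 stood at 248224 intensity units, Myh2, the 2A form of fast oxidative fibres, at 6962 (3.39 ± 0.12), Myh1, the 2X form, at 1386 (1.07 ± 0.04), and Myh4, the 2B form of the fastest fibres, at 164 (-2.01 ± 0.17). The order of signal was thus slow, 2A, 2X, 2B, from the slowest motor to the fastest. Another probe of Myh2, printed once, gave 1.42, close to Myh1. Myh7 was brighter than Myh2 by 5.16, than Myh1 by 7.48 and than Myh4 by 10.56, each past the probe spread, the first not past the wider limit. The steps between Myh2 and Myh1 and between Myh1 and Myh4 were within it. The fourth pair past the spread was troponin T, with slow Tnnt1 brighter than fast Tnnt3 (3.90 ± 0.08) by 5.17, also short of the wider limit.

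Several other fast sarcomere genes were bright. Fast troponin C, Tnnc2, was at 7.31 and in the brightest 1% of genes, 1.24 below slow Tnnc1. Fast troponin I, Tnni2, was at 5.76, which is 2.52 below Tnni1. The fast essential light chain Myl1 was at 6.56, which is 1.83 below Myl3, and the fast regulatory light chain Myl11 at 6.10, which is 1.92 below Myl2. Actn3, the alpha-actinin of fast Z-discs, was at -0.31, 4.73 below Actn2, the form of all fibres, a difference just short of the probe spread. So by signal, fast light chains and fast troponins C and I were among the brightest 5% of genes. The fast heavy chains and fast troponin T, Tnnt3 (3.90), were not. All 4 of these bright fast genes lay within the probe spread of Myh2 (3.39), so their placing above it is not one of abundance.

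Outside the contractile apparatus the pairs lay close together. Ldhb was brighter than Ldha, the muscle-type lactate dehydrogenase, by 1.25. Atp2a2 was brighter than Atp2a1 by 1.20, but this rests on 1 of the 2 probes of Atp2a2. That probe gave 7.91 and the other, printed 10 times, 3.69. The spots of the brighter probe lie in the outer 16 rows of the array, and without those rows the difference was -3.02, with the fast pump brighter.

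The fast member was brighter in 3 pairs. Casq2, the slow and cardiac calsequestrin, was at 5.54 and Casq1, the main form of fast fibres, at 6.62, a difference of -1.08. Another probe of Casq1, printed once, gave 4.09, which is below Casq2, so this order rests on 1 probe of Casq1. Tpm3, slow alpha-tropomyosin, was at 2.59 and Tpm1, the fast form, at 3.48, a difference of -0.89. Both tropomyosin genes disagreed between their own probes, 2.59 and -3.32 for Tpm3 and 3.48 and 0.53 for Tpm1, so this pair has no reliable order. Slc16a1, the lactate transporter of oxidative fibres, was at 0.74 and Slc16a3, that of glycolytic fibres, at 1.32, a difference of -0.57.

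The order held on the other 3 arrays for 13 of the 14 pairs. The exception was Tpm3 and Tpm1, for which the difference was -0.89 in normal, 0.02 in regenerated, -0.38 in overloaded and -1.16 in regenerated overloaded soleus. A probe's own response is the same on every array, so agreement between arrays does not show that an order is one of abundance. It shows that the 3 other muscles rank the pair as normal soleus does.

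**Figure D3:**
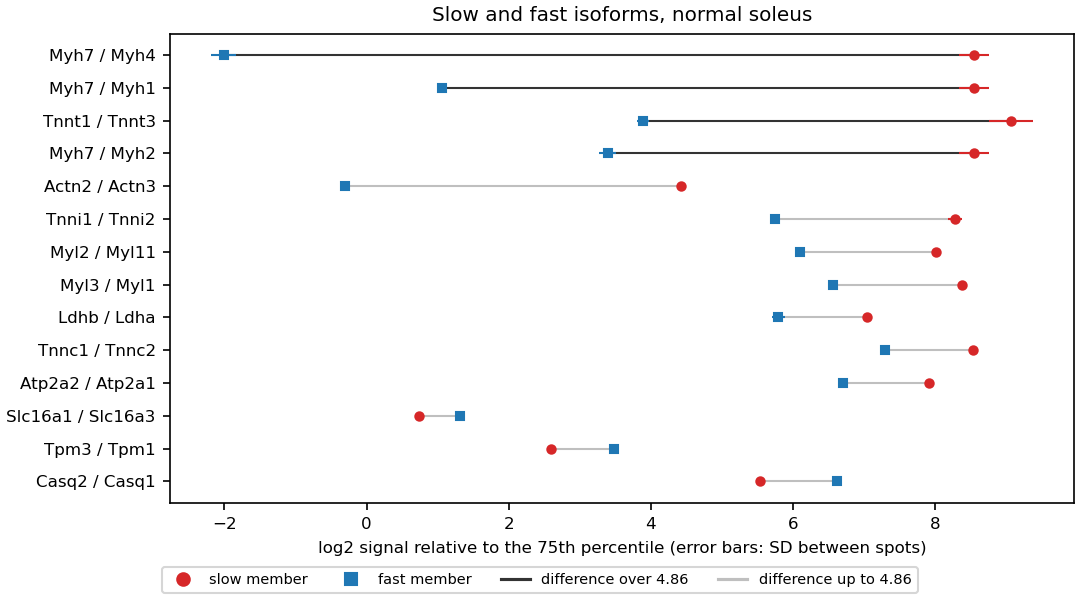
Log2 signal relative to the 75th percentile in normal soleus for the slow (red circles) and fast (blue squares) members of 14 pairs, with bars for the SD between spots. Dark lines join members that differ by more than 4.86, the difference that 90% of probe pairs of 1 gene stay within. The 3 pairs at the bottom have the fast member to the right.

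Of 39 pairs of a muscle or adult isoform with a form of other tissues, the heart or the developing muscle, 33 had both members well above background. The first, muscle-type member was brighter in 28, in 14 of them by more than the probe spread (13 with the wider limit), and the second in 5, in none by more than the spread. The median difference was 4.55 and the range -1.81 to 10.48. In 3 more pairs the muscle member alone was well above background. These were Ckmt2 (8.22) over Ckmt1, Gys1, the muscle glycogen synthase (4.76, with a probe printed once at -2.08), over Gys2 of liver, and Fbp2, the muscle fructose bisphosphatase (0.98), over Fbp1. All 33 pairs had the same order on the 4 arrays.

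Enzymes and carriers of fuel use gave most of the wide differences. Cpt1b, the muscle gatekeeper of fatty acid entry into mitochondria, was at 6.18 and Cpt1a, the liver form, at -2.27, a difference of 8.45, though another probe of Cpt1b, printed once, gave -1.39. Ampd1 exceeded Ampd2 by 9.96, Aldoa, the muscle aldolase, exceeded Aldoc of brain by 8.96 and Car3 exceeded Car2 by 8.21. Ckm exceeded Ckb, the brain creatine kinase (0.27), by 7.69. The muscle glycogen phosphorylase Pygm, at 3.61, exceeded the liver form Pygl by 7.12 and the brain form Pygb by 7.08, and the muscle phosphofructokinase Pfkm, at 4.77, exceeded Pfkl by 6.78. Slc2a4, the insulin-responsive glucose transporter GLUT4, was at 4.65 and Slc2a1, GLUT1, at -1.57, a difference of 6.21.

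Most structural and membrane pairs showed the same order. Cacna1s exceeded Cacna1c, the L-type channel of heart and smooth muscle, by 9.86, Tnni1 exceeded cardiac Tnni3 by 10.48 and Tnnt1 exceeded cardiac Tnnt2 by 6.67. Acta1 exceeded the cytoplasmic actins Actb (4.36) by 4.11 and Actg1 (2.27) by 6.20, of which only the second is past the spread, and cardiac Actc1 (5.46) by 3.01. The Actg1 value is uncertain, since another probe of that gene, printed once, gave 6.15. The same holds for Aldoc, at -3.79, with a probe printed once at 0.21. Des, desmin, the muscle intermediate filament, was at 6.17 and Vim, vimentin of connective tissue, at 1.63. Dmd, dystrophin, was at 0.79 and Utrn, its relative at the nerve-muscle junction, at -3.40, but the 2 probes of Dmd read 0.79 and -3.05.

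Heart-type and liver-type subunits of cytochrome c oxidase differed within the spread, Cox6a2 by 2.71 over Cox6a1 (5.96) and Cox8b by 2.76 over Cox8a (5.29), both members being in the brightest 5%. Des over Vim (4.55) and Dmd over Utrn (4.19) also lay within the spread. Other pairs with a brighter muscle member and a difference within the spread included the fatty acid binding proteins Fabp3 over Fabp5 (4.66) and Fabp4 (4.58), Ampd1 over Ampd3 (4.46), Eno3 over Eno1 (4.28), Pgam2 over Pgam1 (2.47), Phkg1 over Phkg2 (1.18) and the acetyl-CoA carboxylases Acacb over Acaca (0.53). The pairs Phka1 and Phka2, Cox7a1 and Cox7a2, and Ryr1 and Ryr2 were not read, since 1 member had no matched probe. Of their other members, Cox7a2 was at 6.67, Phka1, a regulatory subunit of phosphorylase kinase, at -3.16 and Ryr2, the calcium release channel of heart, at -0.39.

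In 5 pairs the second member was brighter. Slc25a5, the adenine nucleotide carrier of many tissues, was at 6.87 and Slc25a4, the heart and muscle form, at 5.06, a difference of -1.81. A second probe of Slc25a5, printed once, gave 1.60. Chrng, the acetylcholine receptor subunit of fetal and denervated muscle, was at -0.17 ± 0.06 and Chrne, its adult replacement, at -1.67 ± 0.14, a difference of -1.49. Hk1, the hexokinase of most tissues, was at -0.55 and the muscle form Hk2 at -1.45, a difference of -0.90. Eef1a1, the general elongation factor, was at 5.36 and Eef1a2, the form of muscle and brain, at 4.68, a difference of -0.67. All 4 differences are within the probe spread.

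The fifth was Myh6, the alpha heavy chain of the heart, at 8.71 ± 0.14 against 8.55 ± 0.21 for Myh7. The 2 genes are near-identical neighbours in the genome, so the Myh6 value is uncertain. Of the other 5 heart markers, Tnni3 was at -2.20 and Nppa, Nppb, Myl7 and Mybpc3 were not well above background. Developmental heavy chains were also read: Myh8, the perinatal form, at 7.24 ± 0.19, in the brightest 1% of genes and 1.31 below Myh7, and Myh3, the embryonic form, at 3.33 ± 0.05, 5.22 below it, which is short of the wider limit. The myosin heavy chains share long stretches of sequence, and how far the probes of Myh6 and Myh8 also bind Myh7 was not tested.

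**Figure D4:**
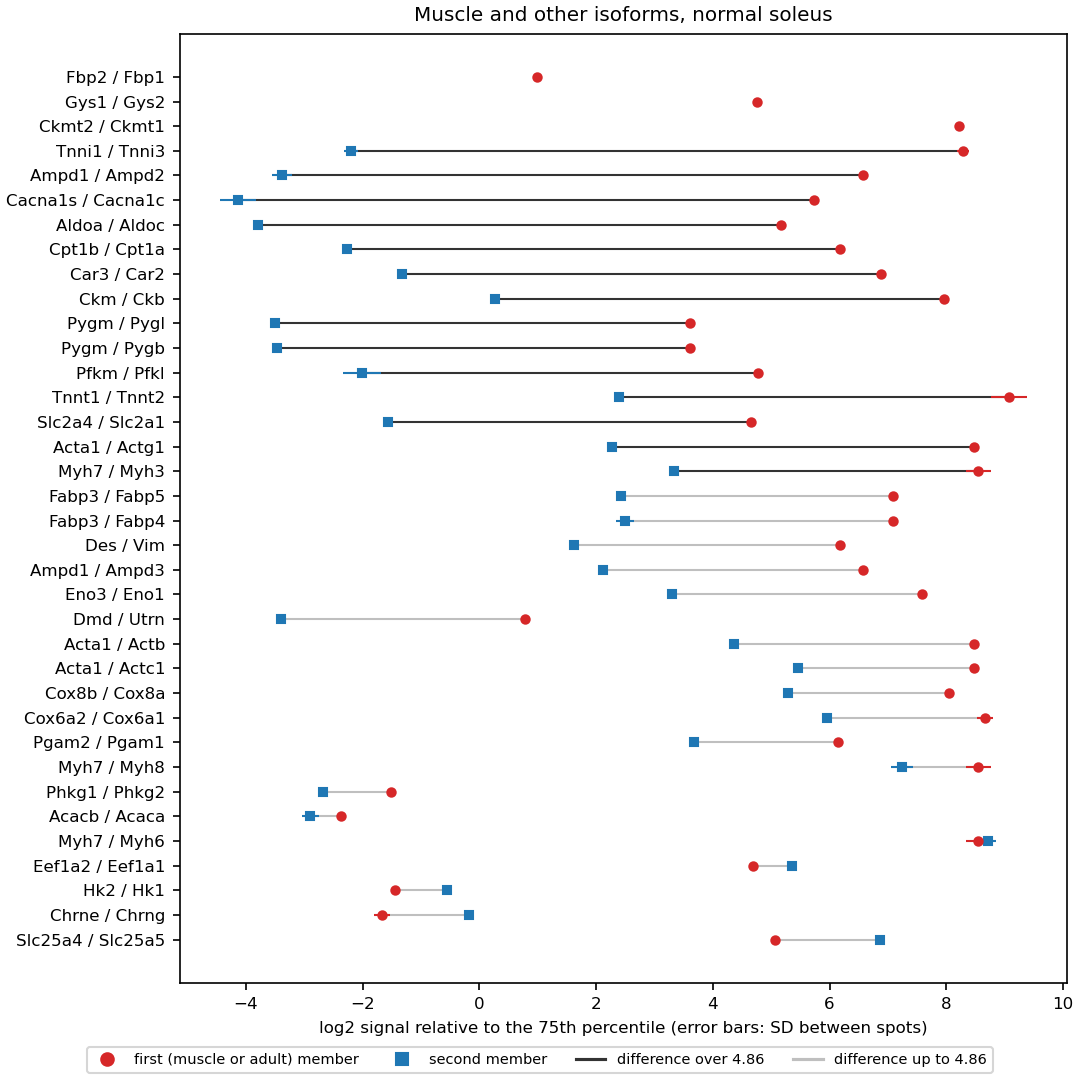
Log2 signal relative to the 75th percentile in normal soleus for the first (muscle or adult, red circles) and second (blue squares) members of 36 pairs, with bars for the SD between spots and dark lines for differences over 4.86. The 3 pairs at the top have a second member not well above background, and in the 5 at the bottom the second member is to the right.

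**Figure D5:**
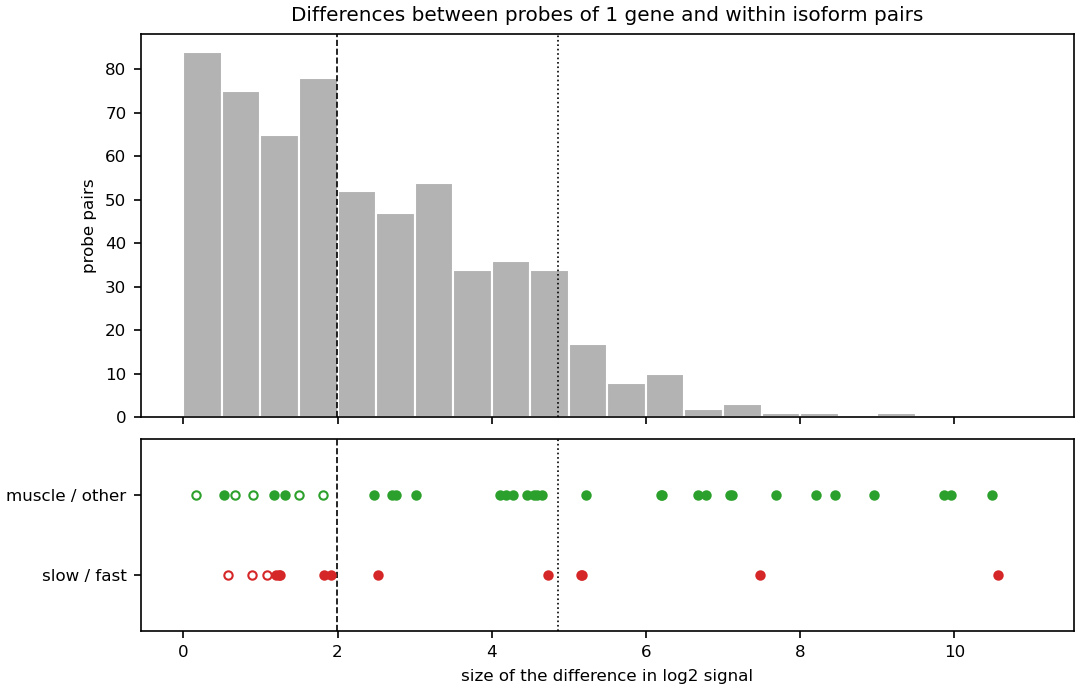
Upper panel: number of probe pairs of 1 gene by the size of their log2 difference on the normal array (602 pairs, dashed line the median of 1.99, dotted line 4.86). Lower panel: size of the difference within each isoform pair, filled where the slow or muscle member is brighter and open where the other is. All 8 open points lie left of the dashed line, whereas 18 filled points lie right of the dotted line.

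As a group, the listed regulators of fibre type and mitochondria gave dim signals. Of 17 read genes for regulators of fibre type and mitochondria, 14 were well above background, a share to set beside 56.7% of all genes, and none was in the brightest 5%. Their median of -2.21 lay below the -0.54 of all genes well above background. Esrra, the nuclear receptor ERR alpha that drives mitochondrial genes, was the brightest at 4.10 ± 0.05, followed by Tfam, which packs mitochondrial DNA (2.80), Mef2d, a muscle transcription factor (0.90), and Hdac5, a repressor of it (0.16). Ppargc1a, the coactivator PGC-1 alpha, was at -2.59 ± 0.18 and Ppargc1b, its relative, at -0.45. Esrrb, Prox1 and Sox6, the last a repressor of slow genes in fast fibres, were not well above background.

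Of 17 myogenic factors and secreted factors, 12 were well above background (70.6%, beside 56.7% of all genes read), with a median of -0.27. Igf1, a growth factor, was at 3.69, Vegfa, the vessel growth factor, at 3.68, Myf6, the myogenic factor of mature fibres, at 2.79 and Igf2, a second insulin-like factor, at 2.67. The probes of Vegfa disagreed by 5.98. Myod1, the myogenic factor of fast fibres and satellite cells, was at -0.88 and Myf5, its relative, at -1.17. A second probe of Myf5 gave -6.48, not well above background. Pax7, the marker of satellite cells, Mstn, the growth inhibitor myostatin, Il6, Fgf21 and Ostn were not well above background. The neuromuscular junction list had 11 of 12 genes (91.7%) well above background and a median of -0.17. It was led by the receptor subunits Chrnb1 (2.44), Chrnd (1.46) and Chrna1 (1.11) and the synaptic transcription factor Etv5 (0.59). The value of Etv5 is uncertain, since its second probe gave -4.86, not well above background. Musk, the receptor kinase that gathers the receptor subunits, was not well above background.

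Markers of other cell types were read beside the 56.7% of all genes read that were well above background. Fibroblast markers were 6 of 6 well above background, with Dcn, decorin, at 4.81, the collagens Col3a1 and Col1a1 at 3.95 and 3.83, and Pdgfra, the receptor of mesenchymal progenitors, at 0.38. Macrophage markers were 8 of 8, with Lyz2, lysozyme, at 4.64 and the complement genes C1qb and C1qa at 3.85 and 2.47. These are the brightest of that list, whose median was -0.07 and whose dimmest member, Mrc1, was at -3.33. Endothelial markers were 7 of 8, with Kdr and Pecam1 at 2.13 and 2.05 and Tek not well above background. Smooth muscle and pericyte markers were 6 of 8, with Tagln at 1.21 and Rgs5 at 0.83, and Cnn1 and Lmod1 not well above background. The list medians were 2.11 for fibroblast, 0.36 for endothelial and 0.59 for smooth muscle and pericyte markers. The brightest of these markers, Dcn, lay below Mybpc1 (7.54), the dimmest of the sarcomere genes named at the top of the ranking.

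Of erythroid genes, Hba-a1, alpha-globin, was at 6.78 and Hbb, beta-globin, at 6.36, both in the brightest 5%. Each of these placings rests on 1 probe. The probes of Hbb disagreed by 4.36, and another probe of Hba-a1, printed once, gave 2.64. In both genes the dimmer probe lay below the limit of the brightest 5% (4.64). Alas2, the haem enzyme of red cells, was at -1.39 and Slc4a1 was not well above background. Of the smaller lists, each of 7 genes at most and to be set beside 56.7% of all genes, adipocyte markers were 5 of 6, with Cfd, adipsin, at 3.23, Fabp4 at 2.50, Adipoq, adiponectin, at 0.28 and Lep not well above background. Tendon markers were 4 of 4, with a median of 1.56, Scx, the tendon transcription factor, at 3.69 and Fmod, fibromodulin, at 3.27. Schwann cell markers were 6 of 7, with a median of -2.28, Pmp22 at 2.06, Mbp at 0.97 and Prx not well above background. Another probe of Mbp gave -5.31, not well above background. Satellite cell markers were 4 of 5, none above -0.88. T and B cell markers were 1 of 3 (Cd3g, -4.17, with Cd3e and Cd2 not well above background).

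Genes of unrelated tissues were mostly not well above background. None of 7 brain markers (Gfap, Snap25, Syt1, Slc17a7, Gad1, Neurod1 and Syn1) was well above background, and of 7 liver markers 1 was, Ttr at -3.41, with Alb, Apoa1 and Fgb among those that were not. Of 1057 olfactory receptor genes, 41 (3.88%) were called well above background, against 56.7% of all genes read. The median of the 41 was -3.38 and the brightest, Or2ak6, was at 1.86, above Pln and Pvalb.

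Most of the brightest genes of normal soleus were among the brightest in the other 3 muscles. Of its brightest 90 genes, 89 were in the brightest 1% of regenerated soleus (98.9% of the normal list and 86.4% of the 103 there), 87 in that of overloaded soleus (96.7%, and 82.1% of 106) and 83 in that of regenerated overloaded soleus (92.2%, and 81.4% of 102). The normal array had fewer genes well above background, 8978 against 10338, 10550 and 10188. It also had the highest local background, 44 intensity units against 33, 32 and 32, and the lowest share of spots well above background, 60.2% against 68.8%, 70.4% and 67.9%. Percentiles within an array therefore rest on different numbers of genes.

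With that limit, median percentiles of gene lists were set side by side. The median percentile of thick filament genes was 92.9 in normal, 93.0 in regenerated, 92.8 in overloaded and 92.2 in regenerated overloaded soleus. That of ATP synthase was 99.2, 99.3, 99.3 and 99.2 in the same order, and that of thin filament genes 96.7, 96.3, 93.3 and 95.6. Lists nearer the middle of the ranking differed more between arrays: the neuromuscular junction list was at 55.3, 65.0, 64.0 and 59.2, and the regulators of fibre type were at 25.6, 31.9, 31.8 and 27.0. The regulator medians are over 14, 15, 14 and 15 genes. Macrophage markers had a median percentile of 56.7 in normal soleus and of 72.5, 73.2 and 74.2 in the other 3. Fibroblast markers were at 77.5 in normal soleus and at 86.6, 87.2 and 87.4. Endothelial markers were at 62.7 in normal soleus and at 60.9, 61.0 and 57.2 in the others. The first of these medians is over 7 genes and the others over 8, Tek being counted there, so they are over unlike sets. Normal soleus was lowest of the 4 on the macrophage, fibroblast, junction and regulator lists, which include lists of fibre genes as well as markers of other cells. The part of its higher local background and smaller number of genes in this was not tested.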

How the data were processed

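Cy3-labelled cRNA was made from total RNA with the Low Input Quick Amp kit after extraction with Isogen, per the labels' protocols. The deposited scanner file gives each spot's processed signal as an intensity, background-subtracted by the scanner software, along with the spot's signal and local background (also intensity) and flags. The software was Feature Extraction 11.5.1.1 per the file headers and 10.10.1.1 per the submitters' processing notes. The deposited series table, also an intensity, equals the processed signal times 2.14 at every probe spot, and what the authors took this constant from is unknown. It is linear and not centred.

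From these files, control spots and the 406 spots with an outlier flag of 62976 were left out, no spot being saturated. Processed signals were divided by the array's 75th percentile (662 intensity units), taken to log2 and averaged over the spots of a probe. Probes with at least 2 usable spots were kept, 17230 of 30367. A probe was well above background where most of its spots carried that flag, and a gene was read from its brightest such probe. By accession, 18643 probes matched 15637 symbols of assembly GRCr8, and 10802 genes and transcripts read from probes printed once alone were left out. Mylpf was looked up under its present symbol, Myl11.

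The genes named are the 40 brightest with a symbol, both members of every isoform pair, and for every list the 4 brightest members and defining members not well above background, with genes whose probes disagree. Genes outside that rule, such as the dimmest members of lists, were named after their values were seen. Some genes and the pairs that hold them are not reported here. Members, pairs and lists were chosen with earlier results of these data known. Promoters and motifs are from RefSeq, GRCr8, and array coordinates were not used. The alternatives were normexp background correction (limma 3.58.1 in R 4.3.3, offset 50), other rules for probes and spots, the array's outer 16 rows left out, and the deposited table. Python 3.11.15, numpy 2.4.6 and pandas 2.3.3 did the rest, and the scripts were tested on simulated data. A single array limits the precision.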

Additional observations from a re-analysis of the deposited data

Results flagged for a closer look

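In normal soleus, 16 genes of the muscle and regulator lists were read only from probes printed once, which the profile leaves out, and their signal was above that of the negative control spots (median -6.62, all on the log2 scale relative to the 75th percentile). A value from a single spot has no error of its own. Tcap, the titin cap protein of the Z-disc, was at 8.11, in the range of the brightest 1% of genes. Other sarcomere and chaperone genes were Tmod4, a thin filament capping protein, at 6.84, Hspb1, a small heat shock protein, at 5.65, and Xirp2, an actin-binding repeat protein, at 3.08. Of calcium handling and the triad, Sypl2 was at 6.01, Hrc, a calcium-binding protein of the sarcoplasmic reticulum, at 4.82 and Stac3, a partner of the voltage sensor, at 4.63. A second probe of Sypl2 gave -1.18, a disagreement past the probe spread, so its level is uncertain. Of membrane genes, Popdc3 was at 1.64 and Sgcd, delta-sarcoglycan, at 0.22. Among metabolic and secreted factors, Fndc5, the precursor of irisin, was at 1.85, Car14, a carbonic anhydrase, at 1.55 and Mss51 at -1.16. Among regulators, the myogenic factor Myog was at 1.998, Vgll2, a TEAD cofactor, at 0.43, the homeobox factor Six4 at -0.86, and Ppard, the fatty acid receptor PPAR delta, at -3.87. Second probes gave -4.11 for Ppard and -6.35 for Six4, the latter not well above background.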

How the results depend on the processing

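The number of genes well above background, 8978, rose to 14507 with probes printed once kept and to 15831 with no filter on dim probes. The order of 1 isoform pair reversed: Atp2a2 minus Atp2a1, 1.20, became -0.91 where all probes of a gene were averaged and -3.02 without the outer 16 rows. With probes printed once kept, Acta1 minus Actg1 went from 6.20 to 2.32 and Aldoa minus Aldoc from 8.96 to 4.95, in the same order. Of 14 slow and fast pairs, 11 had the slow member brighter, 10 of 14 with the mean over probes, 8 of 11 without the outer rows, and 11 of 14 under the other alternatives. Of 33 muscle pairs, 28 had the muscle member brighter, 26 of 30 without the outer rows, 31 of 36 with no filter, and 28 of 33 under the others. Muscle list genes well above background numbered 103, with a range of 91 to 113, and the brightest 1% held between 28.4% and 46.4% of the summed signal. Normexp changed no pair's order, and the deposited table, a constant multiple of the processed signal, could change none. With the spread taken over probe pairs with 1 or both probes well above background, an alternative chosen after seeing the data, 2 slow pairs and 13 muscle pairs were past it in place of 4 and 14, and Myh7 with Myh2, Tnnt1 with Tnnt3 and Myh7 with Myh3 were not. Dim signals are limited by the background: 1 array gives no spread between muscles, and no order within the probe spread is one of abundance. No paired analysis was possible because each group has 1 array and no result comes from a test.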

Other observations

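Beyond the lists, several of the brightest 5% of genes in normal soleus belong to groups that were named after their values were seen. Of the elongation factors of translation, Eef1g was at 6.20, Eef1b2 at 6.09, Eef1d at 5.71, Eef1a1 at 5.36, Eef1a2 at 4.68 and Eef2 at 4.67. Mitochondrial carriers and channels included Vdac1, the main pore of the outer membrane, at 7.08, Vdac3, its relative, at 6.36, and Mpc1, the pyruvate carrier subunit, at 6.87. Cycs, cytochrome c, was at 6.77. Antioxidant enzymes included Gpx1, a glutathione peroxidase, at 7.47 over 10 spots and Gpx4, which acts on lipid peroxides, at 6.74. Twnk, the helicase of mitochondrial DNA, was at 7.22, while Tfam, which packs that DNA, was at 2.80. H19, an imprinted long RNA, was at 6.61, and its imprinted neighbour Igf2 at 2.67, also within the probe spread. Bnip3, a mitophagy receptor of the outer mitochondrial membrane, was at 6.86, and Asb2, a ubiquitin ligase subunit of muscle, at 6.64.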
